A study of Sus scrofa with 40 samples.

Results

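Expression was compared between pools of pig (Sus scrofa) oocytes classed as deficient in mitochondrial DNA (mtDNA) and pools classed as normal. The members were the 11 libraries that the labels give as pooled, of 40 libraries in the series: 5 pools whose labelled mtDNA state is deficient (titled A1, A2, A3, B2 and B4) and 6 whose state is normal (A2, A3, A4, B1, B2 and B4). All were oocytes at metaphase II, the mature stage that awaits fertilisation, from a commercial hybrid of the Large White, Duroc and Berkshire breeds; no genotype, treatment or age is labelled. The series design text gives 5 pools in each group, against the 6 normal pools labelled. The labels say neither how many oocytes made a pool nor whether any came from the same animal. P-values here therefore measure the spread between these pools. How mtDNA state was assigned to the pools is not stated. Titles of deficient and normal pools carry neg and pos, and those of the single oocytes in the series carry BCBneg and BCBpos.

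Mitochondria carry their own circular genome, which encodes core subunits of the respiratory chain. Every other mitochondrial protein, including the polymerase and packaging factors that copy mtDNA, is encoded in the nucleus and imported. The mammalian egg stores a very large number of mtDNA copies, laid down as it grows, which the early embryo divides among its cells, and low copy number is associated with failure of fertilisation or early development. The fully grown oocyte is also almost silent in transcription, so its RNA at metaphase II is a store made earlier that is translated or degraded on schedule. Transcripts of mtDNA itself matched no row of the table and were not analysed here, and the comparison concerns nuclear genes.

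Each pool held 14480500 to 29539000 counts over named rows, and 14207 to 19245 genes had at least 1 count. Levels are given as CPM, counts scaled to a fixed library total with a correction for composition (TMM), which are not per length. The labelled cell type was visible in its markers: 12 of 14 oocyte markers reached 10 CPM on average and none was at 0 in all pools. Of 26 markers of cumulus and granulosa cells, the somatic cells that surround the oocyte, 4 reached 10 CPM and 8, among them FOXL2, AMH and LHCGR, were at 0 throughout. The 4 were GATA4 (67.5 CPM), VCAN (67.3 CPM), INHBA (49.6 CPM) and GREM1 (29.1 CPM). The summed level of the 26 was 162 to 288 CPM in deficient and 211 to 266 CPM in normal pools. None of 11 theca or stroma markers and none of 9 leukocyte or blood markers reached 10 CPM. Pools deficient A2 and normal A3 had the fewest genes detected (14207 and 15057) and the lowest median correlations with the other pools (0.880 and 0.886), so the log2 difference without both is given beside a gene where it moved the value by over 1.5 times.

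Normal and deficient pools gave no difference past the test in any gene. Of 13540 genes with enough counts, edgeR's quasi-likelihood test with Benjamini-Hochberg adjustment called 0 at an adjusted p under 0.05 (0% of those tested), and the smallest adjusted p was 0.459. Before adjustment, 393 genes had a p under 0.05 and higher values in deficient pools (2.9%) and 333 had one and lower values (2.46%), together 726, where 677 would be so by the level of the test alone. In 44 genes every deficient pool lay above every normal pool (0.325%), and in 38 every deficient pool lay below (0.281%). With state labels arranged at random, a share of 0.00216 of genes would separate in each direction by chance. Most of the 44 and of the 38 could thus arise without any effect of state. Genes of the same pools are not independent, so these counts carry no test. Limma-voom also called 0 genes (741 at an unadjusted p under 0.05), while DESeq2 called 34 with higher and 25 with lower values. Without normal A3 the count at an unadjusted p under 0.05 was 1345, without deficient B2 it was 1216, and without both deficient A2 and normal A3 it was 1058. EdgeR called 0 genes in each of these. Scaling by total counts in place of TMM put 32.3% of the genes at an unadjusted p under 0.05 on the higher side, against 54.1%, and moved the median log2 difference over all tested genes from -0.0019 to -0.14.

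The direction of the estimates differed with abundance. Among the 1944 genes at 100 CPM or more, 70.5% had a higher fitted level in deficient pools, with a median log2 difference of 0.13. The share was 52.4% of the 4411 genes at 10 to 100 CPM, 43.3% of the 5467 at 1 to 10 CPM and 40.5% of the 1718 under 1 CPM, where the median was -0.22. With total-count scaling the shares at the ends were 49.9% and 33.9%. Without deficient A2 and normal A3 they were 73% and 41.3%. These are shares of genes within the same 11 pools, not replicated observations, and they carry no test.

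**Figure D1:**
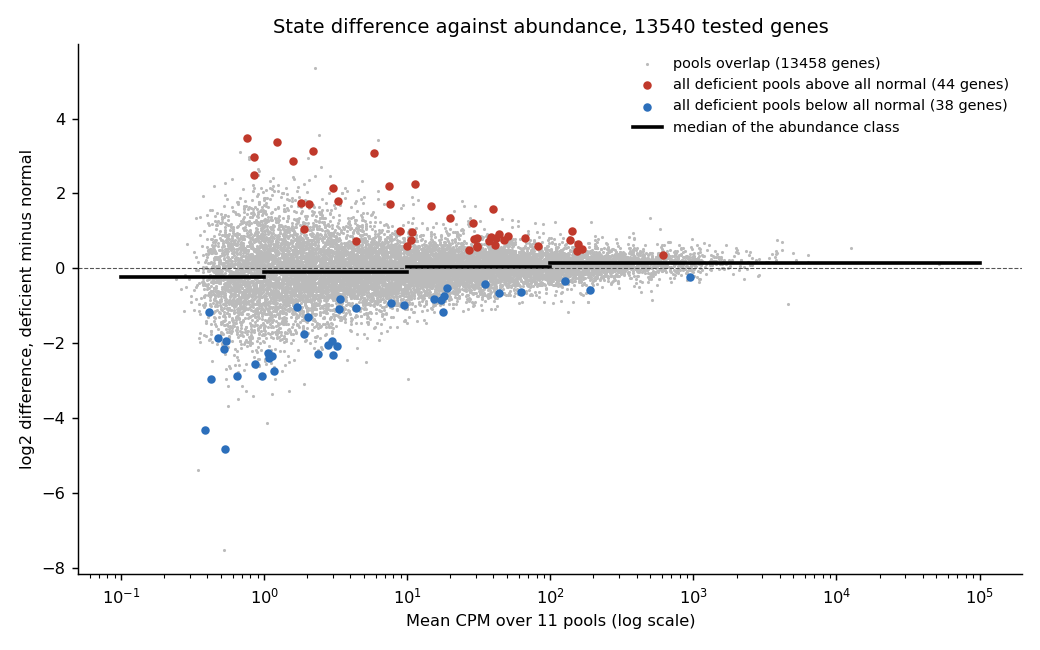
Each point is 1 of the 13540 tested genes, with its mean CPM over 11 pools on a log axis and its log2 difference between states (deficient minus normal); red and blue mark the 44 and 38 genes whose pools do not overlap, and black lines give the median of each abundance class. The class medians go from -0.22 under 1 CPM to 0.13 at 100 CPM or more, and the scatter narrows as abundance grows.

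How much of the oocyte's stored RNA could have differed is limited by the intervals. For 4739 genes (35% of those tested) the 95% interval of the difference lay within 2-fold in both directions. That share was 85.3% at 100 CPM or more, 61.7% at 10 to 100 CPM, 6.58% at 1 to 10 CPM and 0% under 1 CPM, and it covered 71 of the 100 genes with the most counts. In these pools, the values of most genes varied more among deficient than among normal pools. The median SD of log2 CPM was 0.73 in deficient and 0.63 in normal pools, and it was larger in the deficient group for 61.4% of genes. At a mean of 10 CPM or more the gap was smaller, with medians of 0.47 and 0.42 and a share of 57.8%. Such shares count genes within the same pools, not replicated observations, and they carry no test. Deficient A2 and normal A3 had the lowest median correlations with the other pools (0.880 and 0.886). The spread was not computed without them, so their part in it was not tested.

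Among the genes that take the most counts, DNMT1, the maintenance DNA methyltransferase, stood first, with 3.58% to 6.89% of the counts of a pool. Its level was 54793, 72797, 57784, 53924 and 34599 CPM in deficient pools A1, A2, A3, B2 and B4 and 33618 to 88779 CPM (median 47335) in normal pools. The ranges overlapped, and the log2 difference of 0.12 had a 95% interval of -0.47 to 0.72; it was 0.24 without deficient A2 and normal A3. EIF5B, a factor that joins ribosomal subunits, stood at 9041, 32833, 17620, 10679 and 5659 CPM in the same deficient pools and at 5522 to 28667 CPM (median 6930) in normal pools (log2 difference 0.53, and 0.03 without deficient A2 or 1.14 without normal A3). Deficient A2 and normal A3 held the highest value of their group for both genes. ESCO2, a cohesin acetyltransferase, averaged 7115 ± 3233 CPM in deficient and 5572 ± 1936 in normal pools (SD, n = 5 and 6; log2 difference 0.35, unadjusted p = 0.315; 0.23 without deficient A2 and normal A3). For 10 of the 20 genes with the most counts the interval lay within 2-fold. A higher estimate in deficient pools was found for 19 of the 20, against 70.5% of all genes at 100 CPM or more. The exception was RN18S, the 18S ribosomal RNA, at 4330, 2323, 2315, 3932 and 2301 CPM in deficient pools against 1963 to 11059 CPM (median 6233) in normal pools (log2 difference -0.95, unadjusted p = 0.0289). Normal A3 and B1 lay below every deficient pool and the other 4 normal pools above them. Leaving out deficient A2 lowered the estimate of each of the 19 other genes, and ARID4A (-0.07) and CBLL1 (-0.03) changed sign. Leaving out normal A3 raised each of them, to 1.08 for ARID4A and 0.39 for CBLL1.

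Oocyte-secreted and coat factors had a median log2 difference of 0.20 over 8 tested members, with groups that overlapped in the 3 described here. GDF9, a growth factor the oocyte sends to its cumulus cells, stood at 1930, 1325, 1171, 2609 and 1309 CPM in deficient pools and at 947 to 2300 CPM (median 1440) in normal pools. BMP15, its partner, stood at 3452, 1180, 1110, 4064 and 1817 CPM in deficient pools against 897 to 3871 CPM (median 1885). In both genes pool B2 was the highest of its group in both states, and the groups overlapped over most of their range; the intervals of the log2 differences were -0.46 to 0.70 for GDF9 and -0.65 to 1.11 for BMP15. BTG4, the adaptor that brings the deadenylase to maternal mRNA at meiotic maturation, averaged 4340 ± 892 CPM in deficient and 3320 ± 778 in normal pools (log2 difference 0.39, unadjusted p = 0.0936). ZP3, a protein of the zona pellucida coat, was the member of this list with the smallest p: its values were 20.4, 17.4, 23.6, 47.2 and 27.3 CPM in deficient and 26.1 to 116 CPM (median 47.5) in normal pools (log2 difference -0.998, SE 0.37, edgeR unadjusted p = 0.0167, adjusted p = 0.901). Normal B2, at 116 CPM, was far above the other normal pools, and the groups overlapped.

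**Figure D2:**
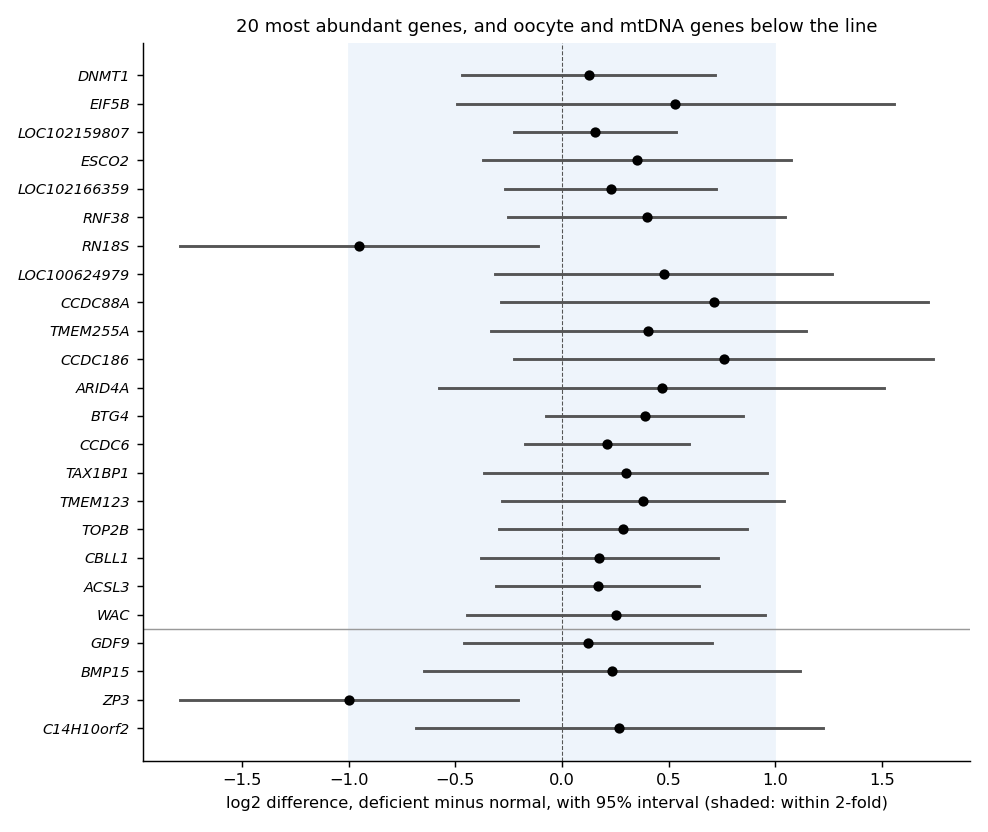
Points are log2 differences (deficient minus normal) and lines their 95% intervals for the 20 genes with the most counts and, below the grey line, for GDF9, BMP15, ZP3 and C14H10orf2; the shaded band is a difference within 2-fold. Of the upper 20, 19 lie to the right of 0 and only RN18S lies to the left, and 10 intervals stay inside the band.

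MDM2, the ubiquitin ligase that restrains p53, had the smallest p among genes of at least 10 CPM with higher values in deficient pools. It stood at 28.1, 30.1, 15.4, 15.8 and 10.9 CPM in deficient pools A1, A2, A3, B2 and B4, and at 1.61 to 6.52 CPM (median 4.10) in normal pools. Every deficient pool was above every normal pool (log2 difference 2.26, SE 0.42, edgeR unadjusted p = 7.45e-05, adjusted p = 0.459). SLK, a kinase of the cytoskeleton and cell shape, stood at 96.2, 74.6, 38.3, 46.2 and 56.3 CPM against 13.7 to 35.3 CPM (median 17.4). Its groups did not overlap, although normal A3, at 35.3 CPM, came close to deficient A3, at 38.3 CPM (log2 difference 1.59, SE 0.30, edgeR unadjusted p = 8.60e-05, adjusted p = 0.459). SHOC2, a scaffold that helps RAS activate RAF kinases, stood at 39.9, 27.1, 12.9, 18.4 and 17.8 CPM against 5.09 to 10.7 CPM (median 7.22). Again no pools overlapped, with deficient A1 the highest and deficient A3 the lowest of its group (log2 difference 1.66, SE 0.33, edgeR unadjusted p = 0.000127, adjusted p = 0.459).

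API5, an inhibitor of apoptosis, was the most abundant of these genes, at 253, 143, 205, 141 and 230.2 CPM in deficient pools against 76.9 to 119.6 CPM (median 91.3) in normal pools. The groups did not overlap, and the difference was 2.01-fold (log2 difference 1.01, SE 0.21, edgeR unadjusted p = 0.000225, adjusted p = 0.459). SETD2, which trimethylates a lysine of histone H3, stood at 48.7, 60.0, 29.4, 35.8 and 34.6 CPM against 12.6 to 25.3 CPM (median 15.6), also without overlap (log2 difference 1.22, unadjusted p = 0.000341). N4BP1, a ribonuclease, stood at 26.1, 47.4, 32.5, 19.9 and 23.98 CPM against 8.98 to 18.2 CPM (median 10.7), without overlap (log2 difference 1.35, unadjusted p = 0.000218). STRBP, an RNA-binding protein first known from spermatids, and GALNT1, an enzyme that starts O-linked glycosylation, did not overlap either, with log2 differences of 0.92 and 0.82. The groups overlapped for the other 4 of the 12 genes named by this rule: ZBTB18, a zinc-finger repressor (1.80), ARRDC4, an arrestin-domain protein (1.44), SPTY2D1, a histone chaperone (1.70), and ITGB1, integrin beta 1 (1.20). Adjusted p-values ran from 0.459 to 0.656 over the 12. DESeq2 gave each of them an adjusted p under 0.05, from 0.000615 for MDM2 to 0.0492 for ITGB1.

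MON1A, part of the exchange factor that switches on RAB7 on late endosomes, had the smallest p of the genes with lower values and at least 10 CPM. It stood at 12.2, 14.4, 5.19, 9.22 and 12.03 CPM in deficient pools against 18.9 to 28.3 CPM (median 24.2) in normal pools. No pools overlapped (log2 difference -1.16, SE 0.28, edgeR unadjusted p = 0.000872, adjusted p = 0.620). WDR45B, an autophagy protein that binds phosphoinositides, stood at 30.9, 37.2, 26.3, 33.2 and 38.2 CPM against 46.1 to 60.1 CPM (median 52.2), also without overlap (log2 difference -0.66, unadjusted p = 0.00339). NMNAT3, the mitochondrial enzyme of NAD synthesis, stood at 35.4, 58.7, 47.9, 44.5 and 50.04 CPM against 65.7 to 88.3 CPM (median 73.2). Its highest deficient value, in A2, stayed below the lowest normal value (log2 difference -0.64, SE 0.19, edgeR unadjusted p = 0.00356, adjusted p = 0.690).

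SETDB1, a lysine methyltransferase of histone H3, stood at 155, 118, 155, 164 and 159 CPM in deficient pools against 171 to 267 CPM (median 238) in normal pools. Deficient A2 was well below the other deficient pools and the groups did not overlap (log2 difference -0.57, SE 0.18, edgeR unadjusted p = 0.00588, adjusted p = 0.758). Non-overlapping lower values were also found for CCDC60 (-0.83 on the log2 scale) and RPP40, a subunit of ribonuclease P (-0.74). AKT2, a kinase of insulin signalling, stood at 18.9, 19.4, 7.59, 27.2 and 19.6 CPM against 26.2 to 62.9 CPM (median 31.5), and deficient B2 lay just above the lowest normal pool (log2 difference -1.005, unadjusted p = 0.00765). The others reported were TMCO6, NECAP2, an adaptor of clathrin-mediated endocytosis, ANXA11, a calcium-dependent phospholipid-binding protein, and AGPAT1, which makes phosphatidic acid. Their log2 differences were -0.97, -0.98, -0.87 and -1.02, and their groups overlapped. DESeq2 gave an adjusted p under 0.05 to 3 of the genes ranked here: MON1A (0.0144), CCDC60 (0.0164) and WDR45B (0.0255). Another 7 rows that carry a LOC identifier and no symbol ranked among these and are not named.

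Of the 24 genes, 14 had no overlap between groups, against 0.325% (higher) and 0.281% (lower) of all tested genes. The genes were picked by smallest p, which favours separated groups, so that count is a description. All 24 had the same direction within the pools titled A and within those titled B, and in every alternative setting. Without deficient A2 and normal A3 the log2 difference was 2.13 for MDM2, 1.74 for SLK, 1.05 for API5 and -1.27 for MON1A. The direction was part of how the genes were chosen, so its stability among the same pools is a description and not support.

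**Figure D3:**
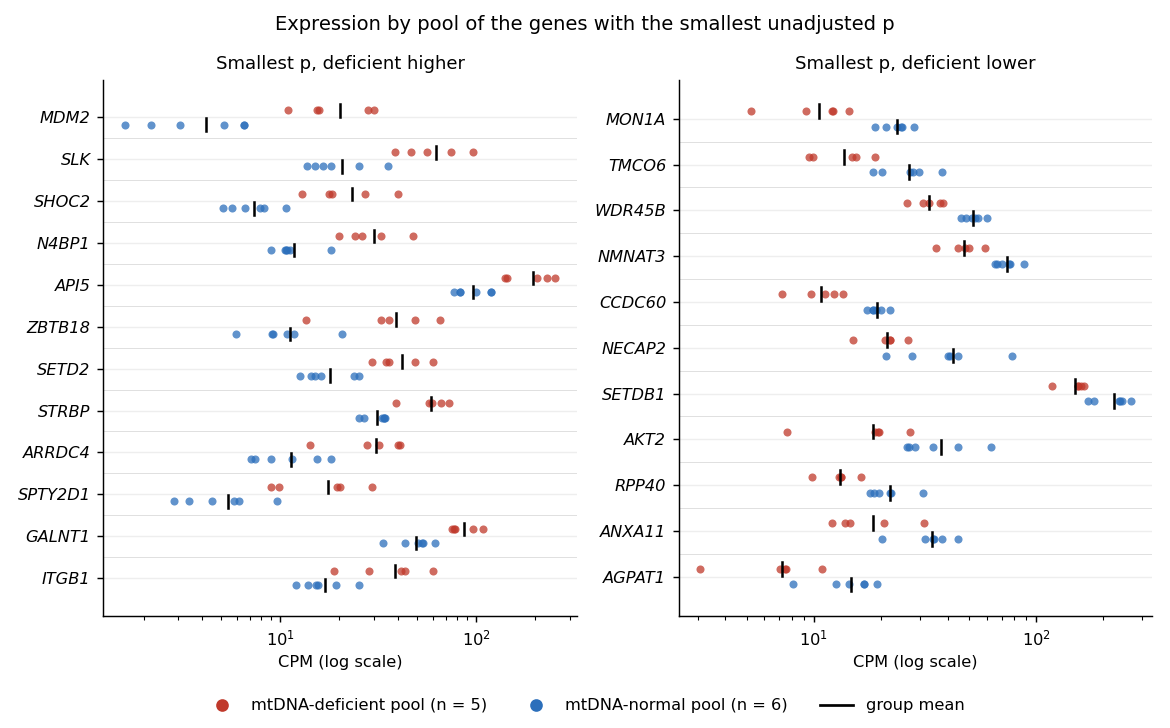
Each dot is the CPM of 1 pool on a log axis, red for the 5 deficient and blue for the 6 normal pools, with a black bar at the group mean, for genes of smallest unadjusted p in each direction (12 higher, 11 lower). In MDM2 the red dots run from 10.9 to 30.1 CPM and the blue ones from 1.61 to 6.52 CPM, whereas in ANXA11 and AGPAT1 the colours mix.

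The genes with the most counts among those without overlap showed smaller differences. CSNK2A2, a catalytic subunit of casein kinase 2, stood at 581, 629, 777, 695 and 806 CPM in deficient and at 479 to 578 CPM (median 553) in normal pools (log2 difference 0.35, unadjusted p = 0.0437). Deficient A1, at 581 CPM, was just above the highest normal pool, at 578 CPM. ITPR1, the calcium release channel that fires when the egg is activated, stood at 242, 228, 164, 175 and 196 CPM against 114 to 155 CPM (median 142) (log2 difference 0.53, SE 0.17, edgeR unadjusted p = 0.00694, adjusted p = 0.787). MPDZ, a scaffold of cell junctions, had a log2 difference of 0.74, FAM160B1 one of 0.65, IL13RA1, a cytokine receptor subunit, one of 0.61, and TMPRSS15, a serine protease, one of 0.46. ADAM17, a protease that sheds membrane proteins, stood at 106, 95.1, 124, 107 and 114 CPM against 124 to 189.7 CPM (median 131), where deficient A3 (123.7) and normal B4 (124.01) nearly met, and LOC100511133 at 889.6, 795, 884, 895 and 872 against 904 to 1211 CPM (median 988). For these last genes the pools did not overlap but the unadjusted p was 0.0616 and 0.157; the log2 difference of LOC100511133 was -0.24, and -0.15 without deficient A2 and normal A3.

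The other genes were read in 30 lists of pathways, complexes and cell markers, which hold 1027 different tested genes. At an unadjusted p under 0.05, 39 of these had higher values in deficient pools (3.8%, against 2.9% of all tested genes) and 33 lower values (3.21%, against 2.46%); none passed adjustment. Below, a list's count at an unadjusted p under 0.05 and its median log2 difference are to be read against these shares and a median of -0.0019 over all tested genes. These backgrounds moved with abundance, in which the lists differ. The median was 0.13 at 100 CPM or more and -0.10 at 1 to 10 CPM. Of the 6355 tested genes at 10 CPM or more, 257 were higher and 135 lower at an unadjusted p under 0.05. The lists were chosen with earlier results of these data known, and they hold genes named above, such as MDM2, API5, SLK, SHOC2 and SETDB1. Their shares are therefore not independent of those results.

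Machinery that copies and expresses mtDNA was the list closest to the labelled state. Of its 30 tested members, 17 had higher and 13 lower estimates (median 0.12, and 0.07 without deficient A2 and normal A3), and 1 had an unadjusted p under 0.05. That gene was MTERF1, which ends transcription on mtDNA, at 11.7, 7.27, 4.69, 3.75 and 8.25 CPM in deficient against 2.79 to 5.17 CPM (median 3.73) in normal pools. The groups overlapped (log2 difference 0.86, SE 0.38, edgeR unadjusted p = 0.0384, adjusted p = 0.903). POLG, the catalytic subunit of the mtDNA polymerase, was scarcely counted, with 0 to 25 counts a pool (0.591 ± 0.371 CPM in deficient and 0.462 ± 0.386 in normal pools). The row C14H10orf2 is not paired with the symbol TWNK in the name tables used here; it was taken as the mtDNA helicase Twinkle because its name follows that of the human open reading frame. It stood at 7.49, 7.45, 2.60, 3.46 and 8.72 CPM against 2.07 to 8.73 CPM (median 4.58), with groups that overlapped fully (log2 difference 0.27, and 0.018 without deficient A2 and normal A3). TFAM, which packages mtDNA, had 0 counts in 8 of 11 pools and at most 20 in any, and was not tested. PPARGC1A, a coactivator of mitochondrial biogenesis, reached 5.14 CPM in normal A3 and at most 1.28 CPM in any other pool (log2 difference -2.19, unadjusted p = 0.0718). Without normal A3 the gene had too few counts to be tested, and without both that pool and deficient A2 its log2 difference was -1.60 (unadjusted p = 0.175). At these depths a 2-fold difference in POLG, TFAM or PPARGC1A was not detectable.

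Nuclear genes for respiratory chain subunits, which assemble with those that mtDNA encodes, had a median of -0.11 over 47 tested members. Only NDUFB6 of complex I had an unadjusted p under 0.05, at 6.58, 7.91, 2.85, 5.01 and 11.4 CPM in deficient against 1.35 to 5.20 CPM (median 3.43) in normal pools (log2 difference 0.98, unadjusted p = 0.0473). For mitochondrial ribosomal proteins, which translate the mtDNA messages, 42 of 59 estimates were lower (median -0.24), from -0.41 to -0.15 over the alternative settings. Their median level was 8.82 CPM, and the median log2 difference of all genes at 1 to 10 CPM was -0.10. Of the 59, 2 in each direction had an unadjusted p under 0.05. MRPS27, higher and without overlap, stood at 9.32, 21.7, 7.99, 13.97 and 7.48 CPM against 3.96 to 7.002 CPM (median 6.58) (log2 difference 0.98, unadjusted p = 0.0119; 0.57 without deficient A2 and normal A3). MRPS35 had a log2 difference of 0.86, MRPL46 one of -0.71 and MRPS24 one of -1.23.

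In protein import and quality control, 3 of 26 members had lower values at an unadjusted p under 0.05 and 1 had higher values (median -0.07). All 3 had few counts, at most 8.09 CPM in any pool. TIMM44, which tethers the import motor to the channel, stood at 1.55, 0.182, 0.3496, 1.44 and 0.5102 CPM in deficient against 1.97 to 3.30 CPM (median 2.90) in normal pools, without overlap (log2 difference -1.76, unadjusted p = 0.0128). TIMM13, a chaperone of the intermembrane space, stood at 0.868, 1.000, 0.0499, 0.576 and 1.32 CPM against 1.45 to 8.09 CPM (median 2.94), also without overlap (log2 difference -2.28, unadjusted p = 0.00648). TIMM50, the receptor of the TIM23 channel, stood at 0.366, 0, 0, 0.108 and 0 CPM against 0 to 3.81 CPM (median 1.76), and a normal pool at 0 overlapped the deficient group. The higher one was HSPD1, the matrix chaperonin, at 243, 284, 277, 183 and 172 CPM against 105 to 264 CPM (median 129.9), where normal A3 again lay highest of its group (log2 difference 0.66, unadjusted p = 0.0173). In the list of mitochondrial dynamics and mitophagy, 1 of 34 members had an unadjusted p under 0.05, GDAP1 (1.22), a fission factor of the outer membrane (median -0.03).

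Glucose use and the citric acid cycle had the most members with lower values: 6 of 49 against 2 higher at an unadjusted p under 0.05, with 33 of 49 estimates lower (median -0.25). The median kept its sign in all 26 alternative settings, from -0.45 under total-count scaling to -0.05 among genes at 10 CPM or more. Its standard error from leaving out 1 pool at a time (jackknife) was 0.22. The settings reuse the same pools, so the kept sign is a description and not support. Among the lower members were IDH2, the mitochondrial isocitrate dehydrogenase that makes NADPH (-1.56), FH, fumarate hydratase (-1.03), ACO1, the cytosolic aconitase that also senses iron (-2.50), TKT, transketolase of the pentose phosphate pathway (-1.49), and GAPDH of glycolysis (-1.90). TKT stood at 3.15, 2.64, 3.70, 5.01 and 1.96 CPM in deficient pools against 2.19 to 20.2 CPM (median 8.02) in normal pools, and the groups overlapped. ACO1 reached 33.7 CPM in normal A3, and without that pool and deficient A2 its log2 difference was -1.03. GAPDH reached at most 4.12 CPM in any pool.

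DLD, the dehydrogenase subunit that the pyruvate and oxoglutarate complexes share, was one of the higher members, at 42.8, 10.4, 19.8, 27.8 and 55.4 CPM against 11.1 to 16.5 CPM (median 14.1); deficient A2 lay below every normal pool (log2 difference 1.18, SE 0.35, edgeR unadjusted p = 0.00397, adjusted p = 0.690). SUCLA2, a subunit of succinyl-CoA synthetase, was the other (0.69). Lipid storage and synthesis had a median of -0.27, with 23 of 33 estimates lower and 2 members at an unadjusted p under 0.05, AGPAT1 and NSDHL, an enzyme of cholesterol synthesis (-0.58). That median was -0.05 among the pools titled B and -0.54 without deficient B2. Fatty acid oxidation had a median of 0.09 over 22 members and none at an unadjusted p under 0.05; the smallest p was that of ACADM, an acyl-CoA dehydrogenase (log2 difference 0.37, unadjusted p = 0.122). Among 20 antioxidant genes (median -0.04), the peroxiredoxins PRDX1 (-0.77) and PRDX2 (-0.94) had lower values and GCLM, the regulatory subunit of glutathione synthesis, higher values (1.26; 0.01 within the pools titled B).

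In the list of p53, apoptosis and DNA damage, 6 of 34 members had higher and 2 lower values at an unadjusted p under 0.05 (17.6% and 5.88%, against 2.9% and 2.46% of all tested genes), with a median of 0.19. This list was drawn up with MDM2 and API5 known from earlier work on these data, so its count is not independent of them. The other higher members were NBN, a sensor of double-strand breaks, MDM4, which acts with MDM2, CCNG1, a cyclin that p53 induces, and MCL1, an inhibitor of apoptosis (1.35). NBN stood at 21.7, 41.7, 34.4, 26.3 and 18.3 CPM in deficient against 10.5 to 22.03 CPM (median 13.2) in normal pools, and the groups overlapped (log2 difference 0.98, SE 0.28, edgeR unadjusted p = 0.00339, adjusted p = 0.690). MDM4 stood at 39.03, 47.4, 43.9, 26.9 and 33.5 CPM against 18.3 to 34.9 CPM (median 24.7) (log2 difference 0.58, unadjusted p = 0.0320), and the groups overlapped. CCNG1 stood at 329, 281, 189, 325 and 214 CPM against 157 to 211 CPM (median 195), and deficient A3 lay inside the normal range (log2 difference 0.51, unadjusted p = 0.0169). Lower values were found for BCL2L1, another inhibitor of apoptosis (-0.55), and ATRIP, the partner of the ATR kinase (-1.14). CDKN1A and PMAIP1, which p53 also induces, had means of 1.77 and 1.39 CPM and log2 differences of -0.45 and -1.09.

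Spindle, kinetochore and cohesin genes had 4 of 33 members with higher and 0 with lower values at an unadjusted p under 0.05 (12.1% and 0%), and the highest median of any list, 0.27. The median level of the list was 156 CPM, and 66.7% of its estimates were higher. Of all genes at 100 CPM or more, 70.5% had higher estimates, with a median log2 difference of 0.13. ESCO1, a cohesin acetyltransferase, stood at 46.4, 76.7, 40.002, 34.9 and 39.6 CPM in deficient against 10.8 to 36.3 CPM (median 17.2) in normal pools; deficient A2 was the highest, and the groups overlapped (log2 difference 1.27, SE 0.32, edgeR unadjusted p = 0.00127, adjusted p = 0.660). SGOL1, the shugoshin that protects centromeric cohesin, stood at 192, 454, 263, 175 and 198 CPM against 109 to 216 CPM (median 161) (log2 difference 0.66, unadjusted p = 0.0215). Its log2 difference was 0.39 without deficient A2 and normal A3 and 0.14 within the pools titled B. STAG2, a cohesin subunit, had a log2 difference of 0.75. CENPE, a kinesin of the kinetochore, stood at 798, 1792, 599, 416 and 435 CPM against 191 to 1020 CPM (median 291). Its highest values were in deficient A2 and, among normal pools, in A3, the pools with the fewest genes detected. The median of the list was 0.08 without deficient A2 and 0.40 without normal A3; without both, the log2 difference was 1.08 for CENPE and 1.30 for ESCO1. The part of library quality in these values was not tested.

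Stored mRNA and its turnover showed few members apart. In maternal mRNA decay (median 0.08) 1 of 27 was higher, DDX6, a helicase of repressed mRNA granules, at 119.7, 75.9, 124, 59.2 and 174 CPM against 30.4 to 80.4 CPM (median 62.1) (log2 difference 0.97, unadjusted p = 0.00649), and 1 lower, EDC4, a decapping scaffold (-1.83; at most 3.19 CPM). In stored mRNA translation (median 0.10), CPEB2, which binds the polyadenylation element of masked messages, had higher (0.84) and PABPC4, a poly(A)-binding protein, lower values (-0.47), of 24 members. Of 32 genes of meiotic arrest and resumption (median -0.05) only RPS6KA3, a kinase of the MAPK pathway, had an unadjusted p under 0.05 (0.59). Among 20 germline factors (median -0.01) PADI6, a component of the oocyte's cytoplasmic lattices, had lower (-0.91) and DDX4, the germ-cell helicase VASA, higher values (1.22). PADI6 stood at 37.8, 33.8, 30.2, 77.8 and 34.0 CPM in deficient pools against 39.5 to 150.2 CPM (median 69.7) in normal pools, with only deficient B2, at 77.8 CPM, inside the normal range.

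In DNA and histone methylation, 24 of 38 estimates were lower (median -0.18, jackknife standard error 0.14). The median kept its sign in all 26 alternative settings, from -0.32 to -0.05, which reuse the same pools and so give no support. An unadjusted p under 0.05 was found for 2 members in each direction (5.26% each): SETD2 and SUZ12, a Polycomb subunit (0.60), were higher and SETDB1 and WHSC1, a histone methyltransferase (-0.93), lower. In acetylation and remodelling (median 0.05), EP300, a histone acetyltransferase (0.38), and CHD8, a remodeller (0.68), were higher, of 46. In splicing (median -0.01), DHX15 (0.92) and PRPF39 (0.999) were higher and SF3A1 (-0.70), EFTUD2 (-0.94) and PRPF31 (-2.10) lower, of 64. TNPO3, an importin of splicing factors, was the only one of 41 pore and transport genes (-0.78; median of the list 0.0065). "Higher" and "lower" here mean an unadjusted p under 0.05.

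In protein synthesis and turnover, RPS2 was the only one of 58 cytosolic ribosomal proteins at an unadjusted p under 0.05 (-1.26), in a list whose median log2 difference was -0.11 (-0.27 without deficient A2 and normal A3), whose median level was 3.62 CPM and whose 95% intervals lay within 2-fold for 9 genes. Of 54 translation genes (median -0.06), the initiation factors EIF3A (1.29) and EIF3J (0.50) had higher values and FARSA, a tRNA synthetase subunit, lower values (-1.74). PSMA7 was the only one of 58 proteasome and ubiquitin genes (-1.05; median of the list -0.06). Heat shock and endoplasmic reticulum stress had 3 of 37 higher and 0 lower (median 0.02): HSF2, a heat shock transcription factor (1.70), and the folding proteins PDIA3 (0.49) and CANX (0.51). PDIA3 stood at 305, 251, 266, 302 and 383 CPM in deficient pools against 177 to 279.6 CPM (median 199) in normal pools, and the ranges overlapped.

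Signalling lists held single genes. Of 26 genes of egg arrest and activation (median -0.04), ITPR1 and PRKCD, a protein kinase C (1.06), had higher values. Of 39 genes of insulin, mTOR and AMPK signalling (median 0.03), SHOC2 had higher and AKT2 lower values. Of 58 vesicle and cytoskeleton genes (median -0.06), SLK and CFL2, a cofilin (0.49), had higher and PFN2, a profilin (-0.73), lower values. None of 8 tested cumulus and granulosa markers (median -0.0092, and -0.11 without deficient A2 and normal A3) had an unadjusted p under 0.05; the smallest belonged to GREM1 (log2 difference -0.18, unadjusted p = 0.578), a secreted inhibitor of bone morphogenetic proteins. COL1A2, a fibrillar collagen, was the only one of 3 tested theca and stroma markers (median -0.61), at 3.70, 2.91, 2.10, 5.15 and 3.49 CPM in deficient against 3.98 to 8.05 CPM (median 6.403) in normal pools (log2 difference -0.85, unadjusted p = 0.0375). CD3E was the only tested leukocyte marker, at 0.851 ± 0.870 CPM in deficient and 0.995 ± 1.14 in normal pools.

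**Figure D4:**
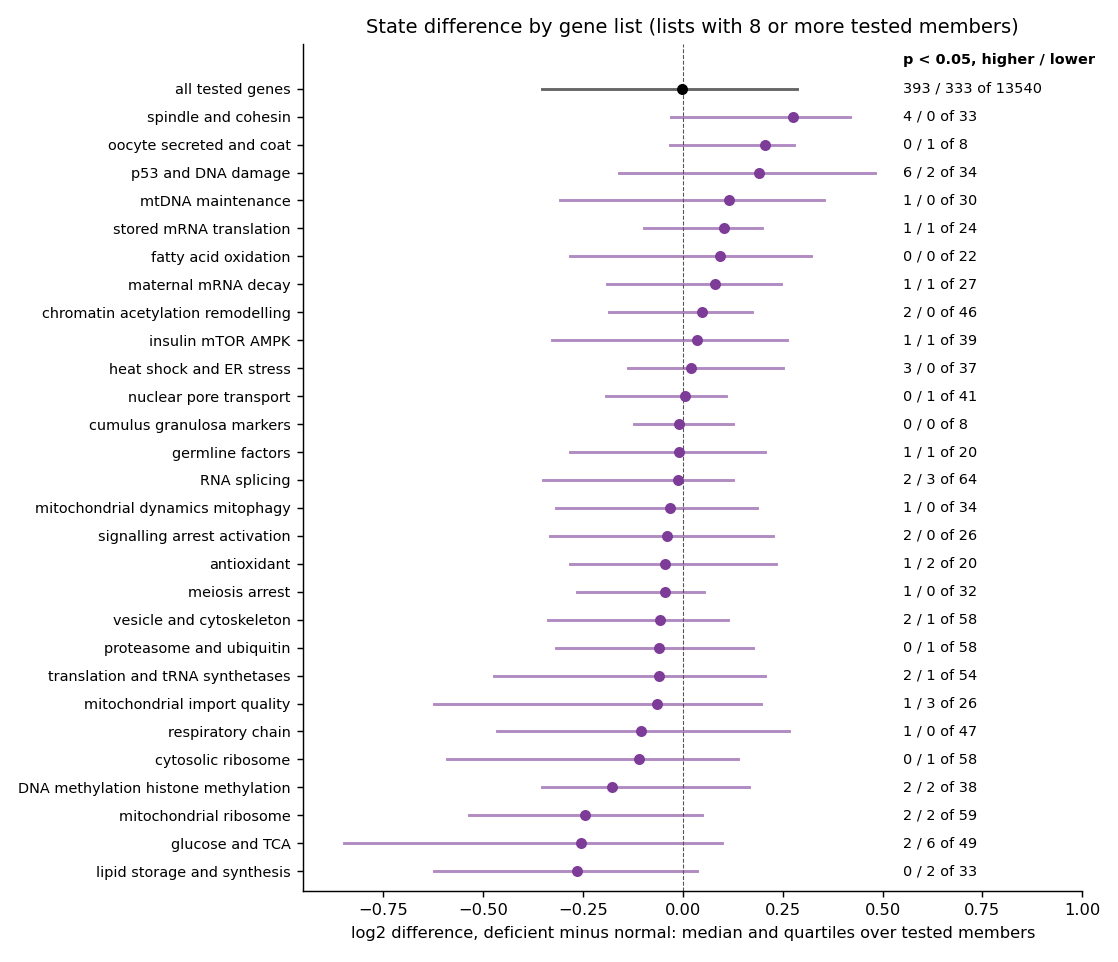
For each list with at least 8 tested members, the point is the median log2 difference (deficient minus normal) and the line its quartiles over members; figures at the right count members with an unadjusted p under 0.05 with higher and lower values in deficient pools, of those tested. Spindle and cohesin genes lie highest at 0.27 and lipid genes lowest at -0.27, and in most lists the quartiles cross 0.

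The pools also differed in ways not tied to named genes. Over 13 library measures, compared with 2-sided exact permutation tests over every arrangement of the pools, none passed adjustment. Genes detected averaged 16574 ± 1666 in deficient and 17938 ± 1556 in normal pools (SD, n = 5 and 6, exact permutation p = 0.197). The difference of -1363.1 became -771.25 without deficient A2 and -1939.2 without normal A3. With 1 pool left out at a time, only leaving out normal A3 gave an exact permutation p under 0.05 (0.0476). The row that names no gene, left out of every total, came to 3.48% ± 0.719 against 2.16% ± 0.857 of the counts (exact permutation p = 0.0216, adjusted p = 0.155). Theca and stroma markers summed to 9.09 ± 1.89 against 12.5 ± 2.10 CPM (exact permutation p = 0.0238, adjusted p = 0.155), from 6.39 to 10.98 CPM in deficient and 10.24 to 15.7 CPM in normal pools; in pooled cells, fewer cells of a type and less RNA per cell cannot be told apart. The first principal component took 31.9% of the variance and ran from deficient A2 (14207 genes detected) and normal A3 (15057) at one end to normal B2 (19245) at the other. Correlations of log2 CPM had a median of 0.931 among normal, 0.893 among deficient and 0.913 between normal and deficient pools. The part of these measures in the differences of single genes was not tested.

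**Figure D5:**
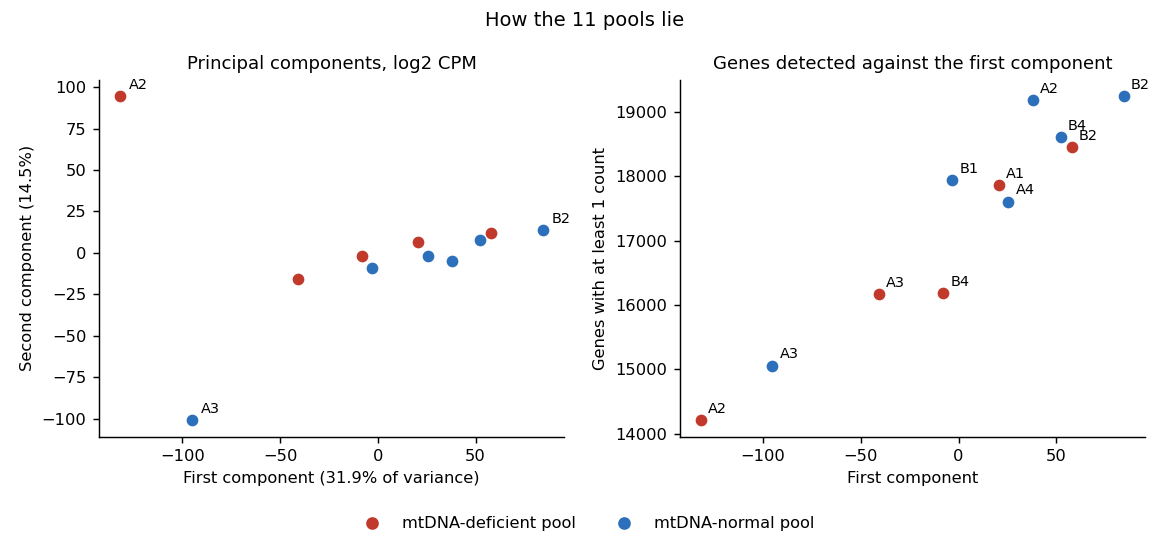
Left, the first (31.9% of variance) and second (14.5%) principal components of log2 CPM over all 11 pools; right, genes with at least 1 count against the first component, with pool titles. Red (deficient) and blue (normal) pools are mixed, deficient A2 and normal A3 stand apart from the rest, and genes detected goes from 14207 to 19245 along the first component.

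Titles of the pools begin with A or B, and the labels do not say what the letter means. Between the 6 pools titled A and the 5 titled B, edgeR called 0 genes (0%), and 1059 genes had an unadjusted p under 0.05 (7.82%), against 726 between the mtDNA states. BPGM, a phosphoglycerate enzyme of red cells, had the smallest p (log2 difference of B minus A 3.05, adjusted p = 0.621), with 69.8 CPM in deficient B2, 65.6 in normal B1 and 35.2 in normal B2, and at most 8.93 CPM in any other pool. C12H17orf80 was also higher in B (1.12), while GPLD1, LCA5 and CNTLN were lower (-1.35, -1.12 and -1.51), with normal A3 the highest of the normal pools for each of these. For the difference of the state effect between letters, edgeR called 0 genes (0%) and 237 had an unadjusted p under 0.05 (1.75%). The 5 genes named there were LOC396858, LOC106506616, LOC100154378, ZCCHC16 and CELF5, each with an adjusted p of 1.00 after rounding. The median standard error of that term was 0.88 on the log2 scale, against 0.44 for the state difference, so a state effect confined to 1 letter was measured with less precision.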

How the data were processed

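The deposited values are counts per gene, whole numbers with no normalization, in a table of 38795 rows. Per the labels' protocols, pooled RNA went through a column kit, isothermal amplification from a single primer and paired-end sequencing. The submitters' processing notes name TopHat2 2.0.14, edgeR, Trim Galore and FastQC, and the build Sscrofa10.2. How reads were counted, and whether by strand, is not given in the sources used here, so overlapping, antisense and near-identical genes are uncertain. Left out was 1 row with no gene name (1.05% to 4.75% of a pool's counts); 24 rows hold dates in place of symbols.

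Genes kept by filterByExpr (13540) were tested with edgeR 4.0.16 (TMM, glmQLFit, glmQLFTest) with no covariate, checked on simulated data; 95% intervals come from the same fit. Alternatives were limma 3.58.1 (voom), DESeq2 1.42.0, other filters and scalings, the title letter, a replicate block and leaving out each pool. No 2 pools were copies (chi-square per degree of freedom 35.0 to 345). Of 1387 list entries 1226 matched a row. Genes are named by rule: the 12 smallest p in each direction at 10 CPM or more (symbols only), up to 3 members of each list, the 10 most abundant without overlap and 5 for each letter test; other list members with an unadjusted p under 0.05 were added after their values were seen. The members and lists were chosen with earlier results of these data known. A gene that the rule names is not reported here.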

Additional observations from a re-analysis of the deposited data

Results flagged for a closer look

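Within each state, a pool was marked when its gap to the nearest pool exceeded Dixon's 95% critical value for its group, over 256 groups of values (named genes and library measures). There were 28 such values. In independent groups of normally distributed values about 1 in 20, or 12.8 of 256, would be marked by chance. The groups here are mostly CPM of genes from the same pools, so 28 against 12.8 is not a test. Normal A3 held 12 of the 28. It was highest among normal pools for DNMT1 (88800 CPM), GPLD1 (2060 CPM), CENPE (1020 CPM), LCA5 (635 CPM), CNTLN (380 CPM), HSPD1 (264 CPM), CFL2 (167 CPM), PRPF39 (48.3 CPM), ACO1 (33.7 CPM) and PPARGC1A (5.14 CPM). It was lowest for TNPO3 (19.4 CPM), and its 100 most abundant genes took 32.1% of the counts.

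Deficient A2 was highest in its group for CENPE (1790 CPM) and ESCO1 (76.7 CPM) and lowest for LOC100511133 (795 CPM) and SETDB1 (118 CPM). Deficient B2 was highest for PADI6 (77.8 CPM), BPGM (69.8 CPM), ACO1 (3.71 CPM) and EDC4 (1.55 CPM). In normal B4, CSNK2A2 (479 CPM) and DHX15 (7.68 CPM) were lowest and RPP40 (30.9 CPM) highest. In normal B2, ZP3 stood at 116 CPM and TFAM at 0.062 CPM, the latter from 2 counts where the other normal pools had 0. Single values were marked in normal A2 (ADAM17, 190 CPM), in normal B1 (N4BP1, 18.2 CPM) and in deficient A1, whose row without a gene name held 4.75% of the counts. CENPE and ACO1 were marked in both states.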

How the results depend on the processing

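EdgeR and limma-voom called 0 genes between the states in every setting tried. DESeq2, with its own filter, called 34 with higher and 25 with lower values. Some of these 59 calls were genes that edgeR did not test, and overlap was read only for tested genes. Among those, 32 calls had pools that did not overlap, against 0.325% (higher) and 0.281% (lower) of all tested genes. The calls come from the same pools, so that count is a description. At 10 CPM or more, 14 calls with higher and 4 with lower values were tested genes. The 726 genes at an unadjusted p under 0.05 became 2603 with no filter, 380 at a mean of 10 CPM or more, 1533 with DESeq2, 424 in the pools titled A and 489 to 1345 with 1 pool left out. The 82 genes without overlap became 40 at 10 CPM or more, and 105 to 266 with 1 pool left out, 378 without deficient A2 and normal A3 (chosen after seeing the data), 359 in the 8 pools of shared titles, 1152 in A and 2644 in B; fewer pools separate more often by construction. The 4739 intervals within 2-fold became 2747 in those 8 pools, 2656 in A and 1773 in B, and 4002 to 4930 with 1 pool left out. Calls between letters were 64 with DESeq2, 246 with no filter and 0 to 1 with 1 pool left out; for the difference of the state effect between letters they were 12, 13 and 0 to 1. The difference in genes detected was -1363.1, and -1939.2 to -771.2 with 1 pool left out. GREM1 changed sign in the pools titled B (0.051) and without deficient B2 (0.0196; -0.59 to 0.0196 with 1 pool left out). CD3E, near 1 CPM, did so with limma-voom, robust or not (0.33), in B (0.36), under the block (0.011) and without deficient A2 (0.035) or A3 (0.0897) and normal A4 (0.40) or B2 (0.0638), from -0.84 to 0.40 with 1 pool left out. The cause of these shifts was not tested beyond the numbers of genes and pools. Of 2488 values of named genes in 26 alternatives, 2462 kept their direction without passing and 16 passed, all with DESeq2.

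The titles A2, A3, B2 and B4 occur in both states, and whether the numbers pair the pools was not tested. Deviations from the state mean correlated at -0.10 (A2), 0.13 (A3), 0.48 (B2) and 0.08 (B4) between pools of the same title. Deficient A3, B2 and B4, but not A2, correlated best with the normal pool of their own title. With the title as a replicate block, 926 genes had an unadjusted p under 0.05, against 523 in the same 8 pools without it. Intervals within 2-fold numbered 3459 with the block and 2747 without it. Both called 0, and the main fit holds no pairing. At these depths, differences under 2-fold are poorly limited below 10 CPM.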
